A study of Homo sapiens with 6 samples.

Results

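Direct YAP target genes are described here in HCT116 cells, a human colorectal cancer line, with and without overexpression of cytoglobin (CYGB), a haem protein that binds oxygen. The members are CYR61, CTGF, AMOTL2, ANKRD1, AXL, CRIM1, F3, NT5E and ARHGEF17, taken by gene symbol from the deposited count table, and they make up 9 of the 40173 genes in it. CYR61 and CTGF are now also called CCN1 and CCN2. The 46 transcripts listed for the 9 genes were summed per gene, and 43 of them had a count in any library. MOCK cells carried a control lentivirus and are labelled wild type for genotype, CYGB cells carried a lentivirus with the CYGB coding region fused to FLAG, and both were stable populations obtained by puromycin selection. Each group had 3 libraries, labelled as biological replicates, and the p-values measure the spread between these libraries, whose separate origin is not described further.

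YAP1 and its paralogue TAZ (gene WWTR1) carry the output of the Hippo pathway. The kinases LATS1 and LATS2 phosphorylate them and keep them out of the nucleus. In the nucleus they bind TEAD transcription factors and raise the transcription of a set of targets, among which CYR61, CTGF and ANKRD1 are the ones most often read as a gauge of YAP activity. The other members encode a scaffold that restrains YAP (AMOTL2), cell surface proteins (AXL, CRIM1, F3, NT5E) and a guanine nucleotide exchange factor (ARHGEF17). The study examined YAP1 in these cells, and the question asked here of its targets is whether their mRNA differed between CYGB and MOCK cells.

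Library totals ranged from 58138393 to 66035266 counts, of which 18.6 to 19.5% lay on assembled transcripts without a gene. CYGB itself, the overexpressed gene, had MOCK counts of 10, 28 and 34 and CYGB counts of 34935, 27681 and 32333. Of 8 epithelial markers, 7 were tested and EPCAM, CDH1, KRT8, KRT18, KRT19 and the intestinal factor CDX2 were expressed in every library, while CDX1 was not analysed here. VIL1, a microvillus protein, was low, with MOCK counts of 22, 24 and 12 and CYGB counts of 34, 40 and 36. Its groups did not overlap (ratio 1.86, 95% interval 1.03 to 3.36, unadjusted p = 0.0426 and adjusted p = 0.963 in edgeR). Over all genes tested, 5.72% were separated in this direction and 11% in either. An unadjusted p under 0.05 in edgeR was found for 4.54%. Among markers of other cell types, PECAM1, CDH5, PTPRC, CD3E, DCN and LUM had at most 12 counts in any library. COL1A2, COL3A1 and CD14 had at most 20 counts. The endothelial markers VWF (22 to 99 counts) and KDR (19 to 40) and the fibroblast markers PDGFRB (12 to 60) and PDGFRA (22 to 35) were counted at low levels in every library. Of the remaining markers, COL1A1 had 2117 to 2823 counts and CD68 had 500 to 1326 counts per library.

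None of the 9 genes differed between CYGB and MOCK cells at the methods' threshold (unadjusted p up to 0.01 together with a CYGB to MOCK ratio of 2 or more, or of 0.5 or less), and none had an adjusted p under 0.05. Over all 19987 genes tested, 0.565% passed the first threshold and 0.055% the second, shares so low that 0 of 9 says nothing particular about the members. The lowest adjusted p of a member was 0.963 (quasi-likelihood test of edgeR, adjusted over all genes by Benjamini-Hochberg). At an unadjusted p under 0.05 there was 1 member, NT5E, and 4.54% of all genes. The median log2 fold change of the members was 0.01, against -0.01 for all genes tested, with 5 members above 0 and 4 below. DESeq2 likewise gave 0 members at either threshold. Of the same 19987 genes it called 263 at the methods' threshold and 108 by adjusted p, more than edgeR did. These are bulk libraries, in which fewer cells expressing a gene and less mRNA per cell cannot be told apart.

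For 6 members the 95% interval of the ratio of CYGB to MOCK lay wholly between 0.5 and 2, as it did for 56% of all genes tested. These were CYR61, CTGF, AMOTL2, CRIM1, NT5E and ARHGEF17. For the other 3 the interval was wider. It held ratios of both 0.5 and 2 for ANKRD1 and F3, and for AXL (0.293 to 1.97) it held 0.5 but not 2. With 3 libraries per group, changes of a size inside these intervals were not excluded. The plot of values by library shows these 2 kinds of gene.

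**Figure D1:**
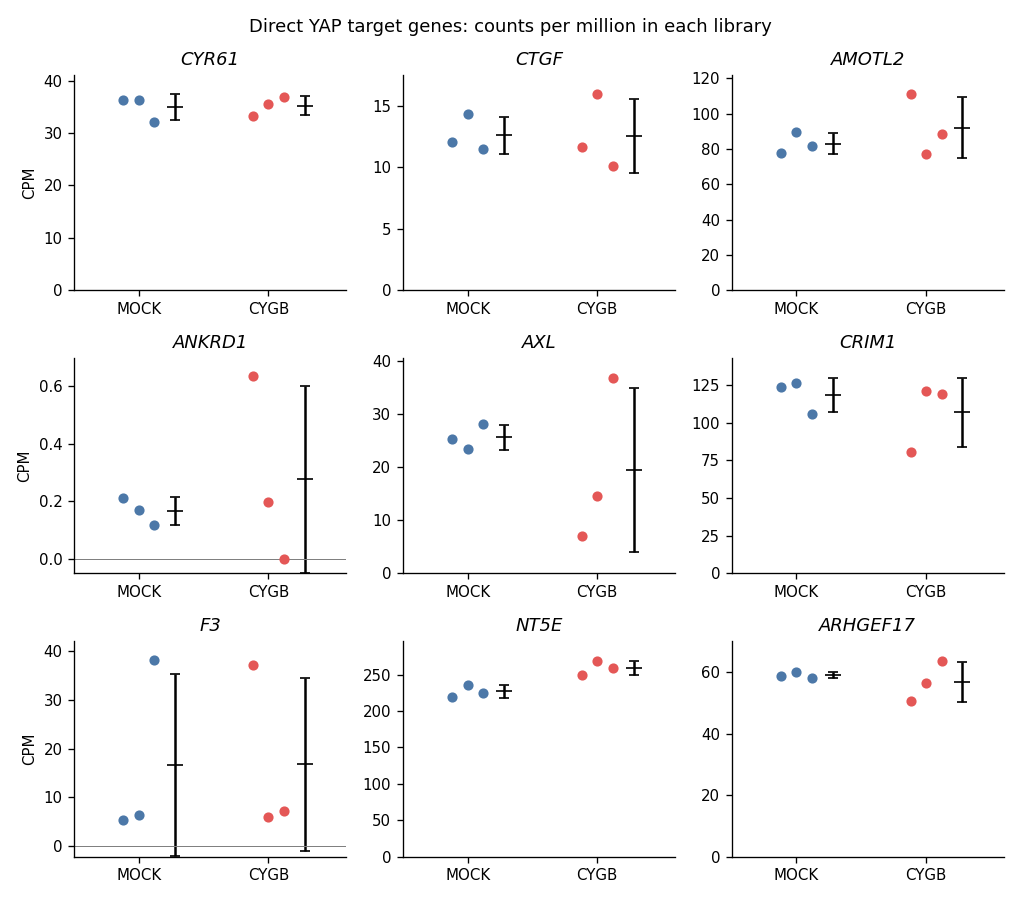
Counts scaled to library size (CPM, y axis, linear) of the 9 direct YAP target genes in the 3 MOCK and 3 CYGB libraries. Points are libraries in the order of their replicate numbers, and the black bar beside them is the mean with the SD (n = 3). NT5E is the member whose groups do not overlap, while F3 has 1 high library in each group and AXL is spread in CYGB cells alone from 7.07 to 36.9 CPM.

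The secreted members are CYR61 and CTGF, matricellular proteins of the CCN family that bind integrins and growth factors. CYR61 (ENSG00000142871, chr1:85580761-85583962 of GRCh38, plus strand) was at 36.3, 36.4 and 32.1 CPM (each gene's counts scaled to the size of its library) in MOCK replicates 1 to 3 and at 33.3, 35.5 and 36.9 CPM in CYGB replicates 1 to 3. All 6 libraries lay within 1.15 times of each other and the groups overlapped throughout. The group means were 34.9 ± 2.46 CPM in MOCK and 35.2 ± 1.82 CPM in CYGB (SD, n = 3 each). The ratio of CYGB to MOCK was 1.01 with a 95% interval from 0.841 to 1.21, which is 0.01 on the log2 scale (SE 0.11, adjusted p = 0.998 in edgeR). A rise of CYR61 above 1.21-fold was therefore outside the interval.

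CTGF (ENSG00000118523, chr6:131948176-131951373, minus strand) was at 12.1, 14.3 and 11.5 CPM in the 3 MOCK libraries and 11.6, 15.9 and 10.1 CPM in the 3 CYGB libraries. The highest and the lowest library were both CYGB, and the MOCK libraries lay between them. The means were 12.6 ± 1.50 CPM in MOCK and 12.5 ± 3.04 CPM in CYGB (SD, n = 3 each), with a ratio of 0.994 (95% interval 0.696 to 1.42). On the log2 scale the difference was -0.01 (SE 0.21, adjusted p = 0.999 in edgeR). An antisense gene, AL133346.1, overlaps CTGF and had at most 14 counts in a library, against at least 529 for CTGF.

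The CTGF promoter is shown because it is the textbook TEAD-bound promoter among the members. Its RefSeq window (GRCh38.p14, minus strand, chr6:131951374-131951622, the bases before the GENCODE start) reads as follows, with the TEAD core motif GGAATG in capitals.
CTGF: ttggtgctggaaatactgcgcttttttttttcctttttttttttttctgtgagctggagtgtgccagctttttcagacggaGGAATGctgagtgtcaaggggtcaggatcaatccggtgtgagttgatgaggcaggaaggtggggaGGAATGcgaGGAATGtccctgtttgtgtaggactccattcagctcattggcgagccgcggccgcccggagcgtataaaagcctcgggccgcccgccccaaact
The motif begins 169, 104 and 95 bases before the RefSeq start. RefSeq promoter windows were found for 6 members, with 8 windows in all since AMOTL2 and AXL have a pair each. On either strand of the 250 bases before the start, GGAATG occurred in CTGF (3 times), ANKRD1 (2 times), 1 of the AMOTL2 windows and 1 of the AXL windows, against 11.9% of all 35116 windows. The AXL window with the match (chr19:41226505-41226754) precedes ENST00000593513, which had MOCK counts of 82, 0 and 0 and CYGB counts of 0, 0 and 75. The AXL window at the start of ENST00000301178 and ENST00000359092, which held most AXL counts, had 0 matches. The AP-1 motif TGANTCA occurred in ANKRD1 and, 2 times, in F3, against 6.57% of all windows. No match overlapped another. NT5E had neither motif in its window. No member was called, so the calls cannot tell members with these letters from those without. Over all genes tested, 0.565% passed the methods' threshold and 0.055% had an adjusted p under 0.05 in edgeR. The members without a window were CYR61, CRIM1 and ARHGEF17.

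The cell surface members included NT5E, the gene of the set with the smallest spread within groups, and 2 of the most variable, AXL and F3. NT5E encodes CD73, the ecto-enzyme that turns AMP into adenosine. NT5E (ENSG00000135318, chr6:85449584-85495791, plus strand) was at 219, 236 and 225 CPM in the 3 MOCK libraries and 249, 269 and 259 CPM in the 3 CYGB libraries. Every CYGB library was above every MOCK library, which held for 5.72% of all genes, while 5.31% were separated the other way and 11% in either direction. The means were 227 ± 8.55 CPM and 259 ± 10.1 CPM (SD, n = 3 each), a ratio of 1.14 with a 95% interval from 1.02 to 1.28. This is 0.19 on the log2 scale (SE 0.07, unadjusted p = 0.0307 and adjusted p = 0.963 in edgeR), so it did not pass the test over all genes. With 3 libraries against 3, an exact permutation test cannot go below a two-sided p of 0.1. The main NT5E transcript, ENST00000257770, held 92.9 to 95.3% of the gene's counts in each library and had a log2 fold change of 0.20 (95% interval -0.02 to 0.42). The short transcript ENST00000369646, with MOCK counts of 81, 83 and 69 and CYGB counts of 94, 99 and 128, also did not overlap. Of the 26 tested transcripts of the members, these 2 were the ones whose groups did not overlap, against 10.4% of all tested transcripts (5.19% higher and 5.25% lower in CYGB).

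CRIM1 encodes a transmembrane protein with cysteine-rich repeats that binds bone morphogenetic proteins. CRIM1 (ENSG00000150938, chr2:36355926-36551135, plus strand) was at 123, 127 and 105 CPM in the 3 MOCK libraries and 80.4, 121 and 119 CPM in the 3 CYGB libraries. CYGB replicate 1 was the lowest, and the other 2 CYGB libraries lay within the MOCK range. Its log2 fold change was -0.15 (95% interval -0.58 to 0.28), and without CYGB replicate 1 it was 0.02. FEZ2 overlaps the end of CRIM1 on the opposite strand and had 1204 to 1476 counts, and whether reads were assigned by strand is not given in the sources used here.

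AXL is a receptor tyrosine kinase whose ligand is GAS6. AXL (ENSG00000167601, chr19:41219203-41261766, plus strand) was at 25.3, 23.5 and 28.2 CPM in the 3 MOCK libraries and 7.07, 14.5 and 36.9 CPM in the 3 CYGB libraries. The 3 MOCK libraries were close together, whereas 2 CYGB libraries lay below all of them and CYGB replicate 3 above all of them. The highest library was 5.22 times the lowest. For AXL as a whole the log2 fold change was -0.40 (SE 0.56, 95% interval -1.77 to 0.98, adjusted p = 0.971 in edgeR). It was -1.25 without CYGB replicate 3 (unadjusted p = 0.0144 in edgeR) and 0.00 without CYGB replicate 1, so its size rests on single libraries. EPCAM, the epithelial adhesion molecule, was at 159 CPM in CYGB replicate 3, where AXL was highest, and at 307 to 341 CPM in the other 5 libraries. No other tested epithelial marker was lowest in CYGB replicate 3, and KRT18 was highest there, at 581 CPM. The part of EPCAM in the AXL values was not tested.

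The 2 main AXL transcripts also divided the gene's counts differently from library to library. ENST00000301178 had MOCK counts of 891, 502 and 683 and CYGB counts of 76, 389 and 1617. ENST00000359092 had MOCK counts of 156, 643 and 683 and CYGB counts of 229, 270 and 164. The first held 40.4 to 74.6% of AXL counts in the MOCK libraries and 21.3 to 83.4% in the CYGB libraries, so the shares overlapped fully. Besides their ends, the pair differ by exon 10 of ENST00000301178 (chr19:41239694-41239720, coding, 27 bases), shown in capitals with 15 bases of the neighbouring exon on each side, followed by the junction of ENST00000359092 that skips it.
ENST00000301178: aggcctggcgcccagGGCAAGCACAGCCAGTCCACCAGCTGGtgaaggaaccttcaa
ENST00000359092: aggcctggcgcccagtgaaggaaccttcaa
Of the 3057 windows of 150 bases in ENST00000359092, 148 occur in no other AXL transcript. Its log2 fold change was -1.14 (95% interval -2.60 to 0.32, unadjusted p = 0.103 in edgeR), and it was past the threshold of the methods in 1 alternative, without MOCK replicate 1 (log2 fold change -1.55).

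F3 encodes tissue factor, the receptor for factor VII that starts the extrinsic pathway of coagulation. F3 (ENSG00000117525, chr1:94529225-94541800, minus strand) was at 5.33, 6.40 and 38.2 CPM in the 3 MOCK libraries and 37.2, 5.98 and 7.20 CPM in the 3 CYGB libraries. MOCK replicate 3 and CYGB replicate 1 were high at nearly the same level, the other 4 libraries were low, and the groups overlapped. The highest library was 7.16 times the lowest, although the means were 16.6 ± 18.7 CPM and 16.8 ± 17.7 CPM (SD, n = 3 each). The 95% interval of its log2 fold change of 0.01 (-2.51 to 2.54) spans a wide range in both directions, and the estimate moved to 1.52 without MOCK replicate 3 and to -1.34 without CYGB replicate 1.

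The full-length F3 transcript, ENST00000334047, carried this split with MOCK counts of 249, 258 and 1851 and CYGB counts of 1820, 279 and 316. ENST00000370207, which lacks exon 5 (chr1:94532321-94532480, coding, 160 bases) and encodes a form without the membrane anchor, had MOCK counts of 0, 58 and 110 and CYGB counts of 44, 0 and 0. The 2 splice junctions after exon 4 are shown, with the 15 bases of the following exon in capitals.
ENST00000334047: tcaagttcaggaaagAAAACAGCCAAAACA
ENST00000370207: tcaagttcaggaaagAAATATTCTACATCA
The F3 promoter is shown for its 2 AP-1 matches, 223 and 210 bases before the RefSeq start. The stretch printed (chr1:94541801-94542009, GRCh38.p14, minus strand, AP-1 matches in capitals) ends at the GENCODE start, which lies upstream of the RefSeq start.
F3: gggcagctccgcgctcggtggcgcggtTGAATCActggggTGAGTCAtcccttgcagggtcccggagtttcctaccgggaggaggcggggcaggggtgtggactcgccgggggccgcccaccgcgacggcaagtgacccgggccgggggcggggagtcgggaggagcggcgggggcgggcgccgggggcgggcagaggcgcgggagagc

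In the stacked counts per transcript, AMOTL2, AXL and F3 show how far the division among isoforms differed between libraries of 1 group.

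**Figure D2:**
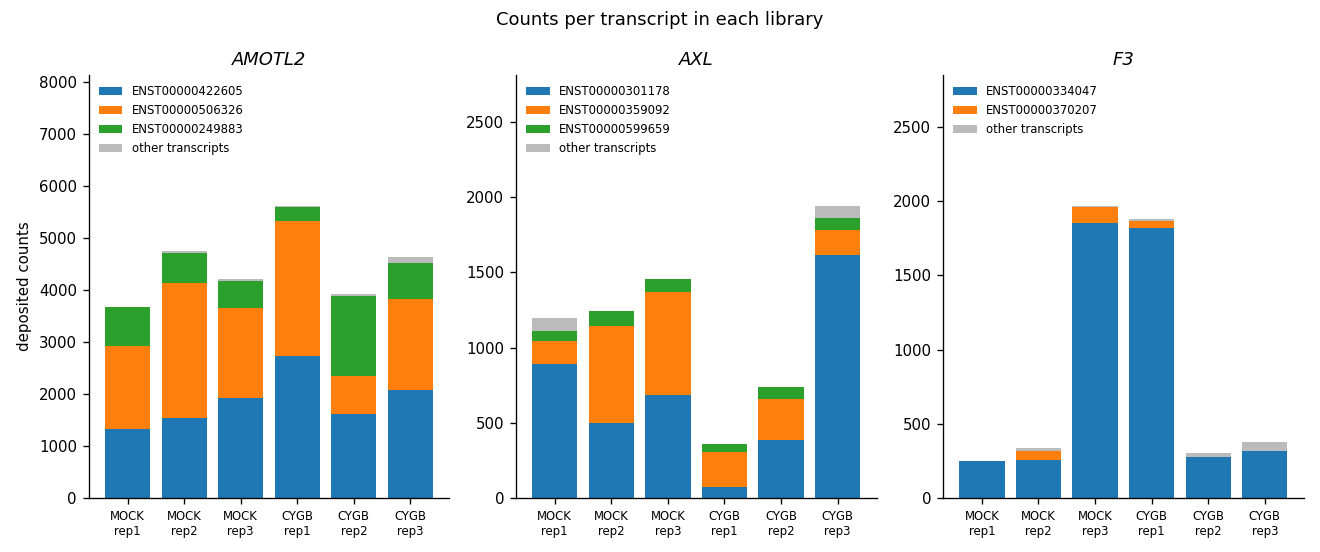
Deposited counts (y axis, linear) of AMOTL2, AXL and F3 in each library (x axis), stacked by transcript. Coloured blocks are transcripts with a mean of at least 50 counts in a group and grey blocks are all others. AMOTL2 totals stay between 3679 and 5607 while the share of ENST00000249883 moves from 4.73 to 39.1%.

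Among the assembled transcripts without a gene, 2 of 21225 ran opposite to F3, a comparison made after the values were seen. A transcript was counted when its sum with F3, scaled to library size, varied by at most 25% over the 6 libraries, its range was at least 50% of that of F3 and its highest value at most 50% above that of F3. Transcript A had MOCK counts of 1837, 1998 and 154 and CYGB counts of 263, 1786 and 1850. Transcript B had MOCK counts of 1531, 1566 and 198 and CYGB counts of 58, 1792 and 1727. Both were low in the 2 libraries in which F3 was high, and the sum of F3 and transcript A ranged from 2089 to 2336 counts. This pattern follows from the rule by which A and B were picked. How many transcripts would meet the rule by chance was not estimated. By the same rule, 1 of 151449 transcripts of other genes ran opposite to F3. The table gives these assembled transcripts no position, and their part in the F3 values was not tested. For AXL, 4 assembled transcripts and 6 transcripts of other genes met the rule.

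**Figure D3:**
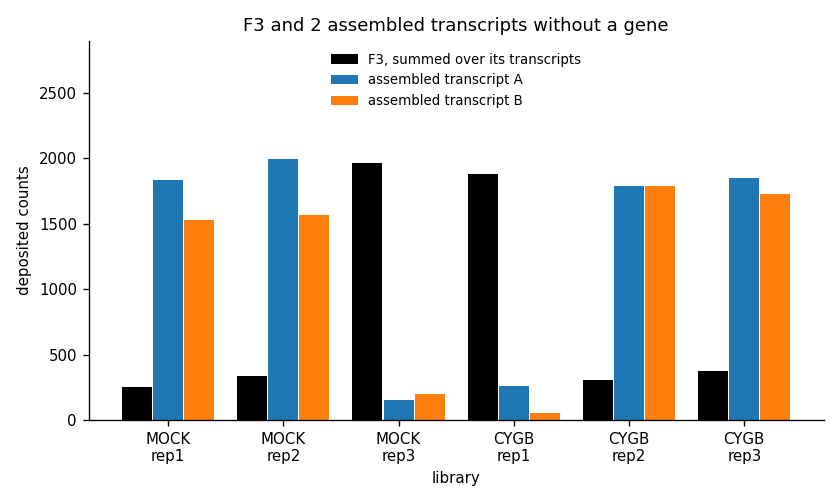
Deposited counts (y axis, linear) of F3 and of 2 assembled transcripts without a gene, A and B, in the 6 libraries (x axis). F3 reaches 1966 and 1881 counts in MOCK replicate 3 and CYGB replicate 1, the 2 libraries in which A and B are at most 263 counts. A and B were picked for running opposite to F3.

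The members inside the cell are AMOTL2, ARHGEF17 and ANKRD1. AMOTL2 is an angiomotin family scaffold that binds YAP and holds it at junctions, and as a YAP target it is part of a negative feedback. AMOTL2 (ENSG00000114019, chr3:134355874-134375479, minus strand) was at 77.9, 89.7 and 81.8 CPM in the 3 MOCK libraries and 111, 77.1 and 88.3 CPM in the 3 CYGB libraries. CYGB replicate 1 was the highest and CYGB replicate 2 the lowest of all 6 libraries. Its log2 fold change was 0.15 (SE 0.15, 95% interval -0.22 to 0.51, adjusted p = 0.963 in edgeR), and without CYGB replicate 1 it was -0.01.

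Of the 13 AMOTL2 transcripts, 3 held nearly all of its counts. ENST00000422605 had MOCK counts of 1320, 1540 and 1921 and CYGB counts of 2728, 1618 and 2087. ENST00000249883 had MOCK counts of 739, 578 and 509 and CYGB counts of 265, 1532 and 693, so that its highest and lowest library were both CYGB. ENST00000506326, a retained intron transcript without a coding region, had MOCK counts of 1607, 2589 and 1739 and CYGB counts of 2599, 732 and 1739. Apart from their ends, the 2 coding transcripts differ by 3 bases at the start of exon 9, in capitals in the first line, with 15 bases before and after.
ENST00000249883: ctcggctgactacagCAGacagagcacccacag
ENST00000422605: ctcggctgactacagacagagcacccacag
ENST00000422605 has 0 windows of 150 bases that are absent from the other AMOTL2 transcripts, and ENST00000249883 has 35 of 4339. How reads were divided among such transcripts is not given in the sources used here, and the summed gene is the steadier value.

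The exchange factor gene ARHGEF17 (ENSG00000110237, chr11:73308289-73369388, plus strand) was at 58.7, 60.2 and 58.3 CPM in the 3 MOCK libraries and 50.6, 56.3 and 63.7 CPM in the 3 CYGB libraries. The MOCK libraries lay inside the range of the CYGB libraries. The ratio of CYGB to MOCK was 0.963 (95% interval 0.800 to 1.16), and ENST00000263674 held 94.3 to 95.3% of the counts in each library.

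ANKRD1 encodes an ankyrin repeat protein of muscle sarcomeres and nuclei that is strongly induced by YAP in many adherent cells. ANKRD1 (ENSG00000148677, chr10:90912096-90921276, minus strand) was barely detected, with MOCK counts of 10, 9 and 6 and CYGB counts of 32, 10 and 0. CYGB replicate 1 was the highest and CYGB replicate 3 the lowest. The log2 fold change of 0.73 had a 95% interval from -2.17 to 3.63 and became -0.75 without CYGB replicate 1, so no direction can be given at this depth.

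The members differed widely in their spread between libraries of 1 group. The pooled within-group SD of log2 CPM had a median of 0.17 over the 9780 genes of at least 10 CPM. NT5E (0.06), CYR61 (0.09) and ARHGEF17 (0.12) were below that median, and AMOTL2 (0.20), CRIM1 (0.26) and CTGF (0.27) somewhat above it. AXL (0.85) and F3 (1.51) varied more than 93.9% and 98.6% of these genes. ANKRD1 (1.85) is below 10 CPM, where counting error adds to the spread. CYGB replicate 1 held the lowest value of AXL, CRIM1 and ARHGEF17 and the highest of AMOTL2 and ANKRD1. How often this library was the highest or lowest over all genes was not counted, so nothing particular to the members is read from this.

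**Figure D4:**
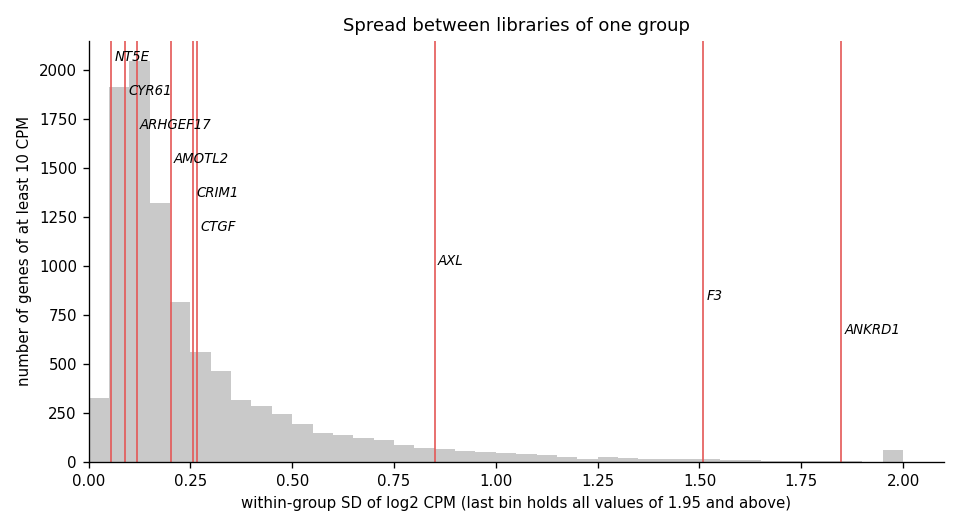
Distribution of the within-group SD of log2 CPM (x axis) over 9780 genes of at least 10 CPM (y axis, number of genes), with the 9 members as red lines. Most members lie in the body of the distribution, and AXL (0.85), F3 (1.51) and ANKRD1 (1.85) lie in its tail.

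Levels of different genes were compared per length, as CPM per kilobase of transcript in MOCK cells (SD, n = 3). NT5E was highest at 65.3 ± 2.29, followed by AMOTL2 at 22.9 ± 2.30 and CRIM1 at 21.2 ± 2.77, which did not differ beyond their spread. CYR61 followed at 15.5 ± 1.08 and ARHGEF17 at 11.4 ± 0.356. F3 at 7.51 ± 8.28 could not be placed against its neighbours, and AXL was at 7.10 ± 0.741. CTGF, at 5.40 ± 0.639, was lower than CYR61, the other CCN member, and ANKRD1 was last at 0.0840 ± 0.0241. In CYGB cells the first 5 genes kept this order by their means, with NT5E at 74.8 ± 2.83 and ARHGEF17 at 10.9 ± 1.50.

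Likeness of pattern was measured as the root-mean-square difference between log2 CPM profiles centred on each gene's mean over the 6 libraries. Among the members, CYR61 and ARHGEF17 were most alike (0.08), then CYR61 and NT5E (0.11), and ANKRD1 and AXL least alike (2.20). CYR61 and CTGF, the 2 classical reporters, differed by 0.22. Among 9779 other genes of at least 10 CPM, those nearest to CYR61 were ARRDC2 (0.02), GUCD1 (0.02) and CFL1 (0.03), where the median gene was at 0.18. Those nearest to CTGF were ANKDD1A (0.07), LMBRD1 (0.08) and PARN (0.08), where the median gene was at 0.28. With so many genes over 6 libraries, close profiles of this kind are a description only.

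The other 13 genes of a common 22-gene list of YAP and TAZ targets were set beside the members. Of these, 12 were tested, 4 lay above a log2 fold change of 0 and 8 below, and 0 passed either threshold, with 0 at an unadjusted p under 0.05 and 0 whose groups did not overlap. DESeq2 also called 0 of them. Their median log2 fold change was -0.08, within a range from -0.45 to 0.34. The 3 furthest from 0 were RBMS3, an RNA-binding protein at 12 to 22 counts per library (-0.45), CCDC80, a secreted matrix protein (0.34), and FJX1, a Golgi kinase homologue (-0.34). FOXF2, a forkhead factor of mesenchyme, had 0 counts in all 6 libraries. LATS2, the Hippo kinase that is itself a target and is named here outside the rule because of that role, averaged 59.3 ± 1.77 CPM in MOCK cells and 57.2 ± 7.73 CPM in CYGB cells (SD, n = 3 each). For 9 of the 12, the interval of the ratio lay between 0.5 and 2. The plot of log2 fold changes with intervals shows the 21 tested targets and the factors that act on them.

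**Figure D5:**
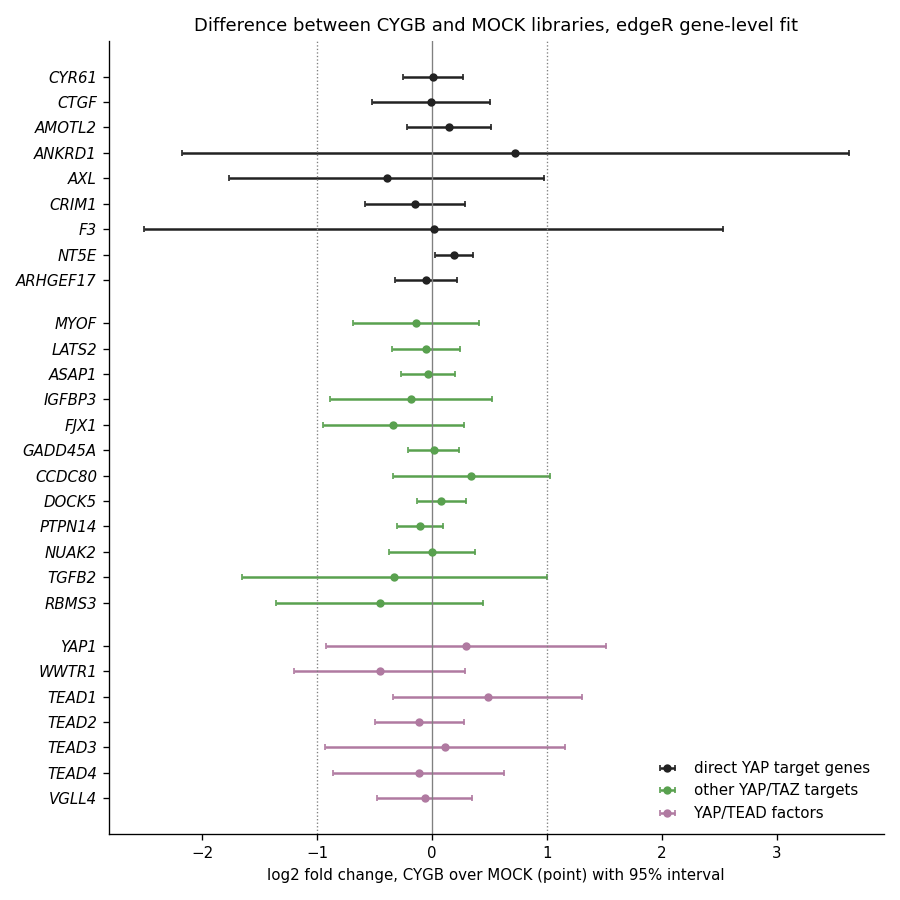
Log2 fold change of CYGB over MOCK (x axis) with its 95% interval for the 9 members, 12 other targets and 7 YAP/TEAD factors (rows), from the edgeR gene-level fit. Dotted lines mark ratios of 0.5 and 2, and the interval of each gene except NT5E holds 0.

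The 7 YAP/TEAD factors also had no called difference. YAP1 was at 191, 44.0 and 169 CPM in the 3 MOCK libraries and 166, 175 and 154 CPM in the 3 CYGB libraries, so MOCK replicate 2 alone was low. The log2 fold change of YAP1 was 0.30 (95% interval -0.92 to 1.52), and without MOCK replicate 2 it was -0.12. WWTR1 was at 51.3, 39.9 and 38.8 CPM in the 3 MOCK libraries and 21.8, 26.2 and 46.6 CPM in the 3 CYGB libraries, with a log2 fold change of -0.46 (95% interval -1.20 to 0.29). As for AXL, CYGB replicates 1 and 2 were its lowest libraries, and the part of WWTR1 in the AXL values was not tested. TEAD1, TEAD2, TEAD3 and TEAD4 had log2 fold changes of 0.48, -0.11, 0.11 and -0.12, and the TEAD cofactor VGLL4 was at -0.06. TEAD1 was highest in CYGB replicate 1, at 58.2 CPM, the library in which AMOTL2 and ANKRD1 were highest. AXL, CRIM1 and ARHGEF17 were lowest in that library, and the part of TEAD1 in the values of these members was not tested. Of the 7 factors, 0 passed either threshold in edgeR or in DESeq2, and 0 had an unadjusted p under 0.05.

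Immediate early genes, which respond to serum and handling and of which several are read beside CYR61 and CTGF, were counted in the same fit. All 14 were tested, 8 lay above a log2 fold change of 0 and 6 below, and 0 passed either threshold in edgeR or in DESeq2, with a median of 0.05. ATF3, a stress-induced factor, was furthest from 0 at 1.17 (95% interval 0.05 to 2.29, unadjusted p = 0.0426 and adjusted p = 0.963 in edgeR), with 2 of the 3 CYGB libraries above all MOCK libraries, followed by IER2 at -1.01 and IER3 at 0.58. IER2 had 829 counts in MOCK replicate 3 and 845 counts in CYGB replicate 1, the 2 libraries in which F3 was high, against 4183 to 13172 counts in the other 4. Its part in the F3 values was not tested.

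Per transcript, 26 of the 46 transcripts of the members were tested, and 0 passed the threshold of the methods, which 1.02% of 66609 tested transcripts passed (0.54% higher and 0.482% lower in CYGB). By adjusted p, edgeR and DESeq2 both called 0 of them, against 0.015% of all transcripts in edgeR. At an unadjusted p under 0.05 there were 0 in edgeR, against 3.78% of all. Of the 17 with a mean of at least 50 counts in a group, those not yet described include the main transcripts ENST00000451137 of CYR61 (log2 fold change of 0.03), ENST00000367976 of CTGF (0.0089) and ENST00000280527 of CRIM1 (-0.13). The others not yet described were ENST00000536481 and ENST00000543530 of ARHGEF17 (-0.44 and 0.24), ENST00000599659 of AXL (-0.24) and ENST00000369651 of NT5E (0.27). The lowest unadjusted p was 0.0694, for the main NT5E transcript.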

How the data were processed

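RNA of MOCK and CYGB HCT116 cells was sequenced in 3 libraries per group. The values deposited by the authors are raw counts for each transcript in 1 table, not normalized. The submitters' processing notes name HISAT2, HISAT, DESeq2 and hg19 without roles, while 99.5% of the annotated transcripts in the table carry GENCODE 29 (GRCh38) positions, so GRCh38 is used here. The counting tool is not given in the sources used here. Assembled transcripts without a gene, 18.6 to 19.5% of the counts, entered neither the library sizes nor the tests.

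Transcripts were summed per gene. Counts were filtered with filterByExpr (minimum count 10), scaled by TMM and fitted by the quasi-likelihood functions (glmQLFit, glmQLFTest) of edgeR 4.0.16 (R 4.3.3), CYGB against MOCK, with no covariate, over 19987 genes and over 66609 transcripts, with Benjamini-Hochberg adjustment. CPM values use the TMM factors. Intervals are at 95%. DESeq2 1.42.0 was an alternative test. The steps were checked on simulated counts. The correlation over genes between the deviations of MOCK and CYGB libraries of the same number was 0.012, 0.0040 and 0.024, so same-numbered libraries showed little shared deviation. Whether they were prepared together is not given in the sources used here, and these correlations cannot settle it. Figures were drawn with matplotlib 3.10.9.

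The members, the lists of other targets, factors, immediate early genes and markers, and the tests were chosen with earlier results of these data known. Genes named were all members, the 7 factors, and in the other lists those past a threshold, not overlapping between groups or among the 3 furthest from 0. Transcripts named had a mean of at least 50 counts in a group. Genes nearest in profile were the 3 closest of at least 10 CPM. The search for transcripts opposite to F3 and AXL was added after the values were seen.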

Additional observations from a re-analysis of the deposited data

How the results depend on the processing

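The number of members called per gene was 0 at either threshold under every alternative run (DESeq2's size factors, DESeq2, all genes unfiltered, only genes averaging 50 counts or more, the replicate block, each library left out, and the transcripts without a gene included), and so were the numbers of other targets and of factors called. ANKRD1 has no value at a mean of at least 50 counts, which it does not reach. With the replicate block 0 members, 0 other targets, 0 factors and 0 transcripts were called, and the block changed no call. Of the immediate early genes, 1 passed the threshold of the methods when CYGB replicate 2 was dropped (from 0 to 1 over such fits), and of the members' transcripts, 1 did without MOCK replicate 1 (range 0 to 1). The lowest adjusted p over these alternatives was 0.70 for a member gene and 0.679 for a member transcript.

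Over fits that each dropped 1 library, NT5E kept its sign, from 0.16 to 0.22 on the log2 scale. The sign changed in at least 1 such fit for CYR61 (-0.046 to 0.050), CTGF (-0.22 to 0.13), AMOTL2 (-0.0082 to 0.26), ANKRD1 (-0.75 to 1.31), AXL (-1.25 to 0.0028), CRIM1 (-0.25 to 0.019), F3 (-1.34 to 1.52), ARHGEF17 (-0.14 to 0.022) and YAP1 (-0.12 to 0.64). Among transcripts it changed for ENST00000249883 (-0.37 to 0.86), ENST00000506326 (-0.69 to 0.13), ENST00000263674 (-0.12 to 0.042), ENST00000301178 (-1.56 to 0.50), ENST00000280527 (-0.22 to 0.045), ENST00000367976 (-0.20 to 0.15), ENST00000451137 (-0.0075 to 0.078) and ENST00000334047 (-1.41 to 1.67). CTGF was at 0.0089 by its transcript ENST00000367976, which was at -0.013 with the replicate block. None of these values was called in either direction, and the cause of the changes of sign was not tested. For ANKRD1, at 0 to 32 counts, depth limits what can be seen. The scaling by DESeq2's size factors changed no sign.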
